A study of Homo sapiens with 24 samples.

Results

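VAL is an established cell line of diffuse large B-cell lymphoma (DLBCL), and the regions described here are stretches of its chromatin, away from transcription start sites (TSS), that were called more accessible after 8 h of AZD4573, an inhibitor of cyclin-dependent kinase 9 (CDK9). They were chosen by the deposited calls themselves: a region was taken if it was listed as increased in VAL at 8 h, if its coordinates were in none of the 4 lists of the second line, OCI-LY3, and if it lay more than 1 kb from the TSS of every GENCODE transcript tagged basic. Of the 11121 regions of the 8 h list, 8539 were in no OCI-LY3 list, and 4702 of these were distal and are the regions of this report. The other 3837 lay within 1 kb of a TSS. All 8 lists together held 26369 different regions, of which 18683 were distal. Among these distal regions 31.0% were increased in VAL at 8 h, a share fixed by the choice of regions and given as a description only.

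Accessibility was measured by ATAC-seq, in which a transposase cuts DNA that is not wrapped around histones. OCI-LY3 and VAL cells, both established DLBCL lines, were each taken at 0 h without the inhibitor and after 3 h and 8 h of 30 nM AZD4573. Each of these 6 groups had 4 libraries, 2 made by the standard protocol from 50000 cells and 2 by Fast-ATAC, labelled with 5000 cells. The deposited lists name the 0 h samples DMSO, and their calls set 3 h or 8 h against 0 h within a line. VAL and OCI-LY3 are single lines, so a difference between them is a difference between 2 cultures and not between classes of lymphoma. The files hold coordinates of called regions and no value per library, so depth is unknown, no spread between replicates can be given, and the 2 protocols cannot be told apart. In bulk libraries a region opened in every cell and a region opened in some of the cells cannot be told apart either.

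CDK9 is the kinase of P-TEFb, which releases paused RNA polymerase II into elongation, and its inhibition stops the synthesis of short-lived transcripts. Distal accessible regions are mostly enhancers and insulators: short stretches where transcription factors bind recognition sequences and hold the DNA free of nucleosomes. In B cells the factors known at such elements include PU.1, OCT2, E2A, EBF1, NF-kB, IRF and RUNX proteins, CTCF marks insulators and loop anchors, and p53, the stress-responsive tumour suppressor, binds a long site made of paired half-sites at many distal positions.

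Many of the results below concern the p53 site, which was more frequent in the VAL-only opened distal regions than in those closed in VAL or opened in OCI-LY3 only. Distal regions increased in both lines held it too, in 3.09% against 4.08% in the main search, a difference whose interval includes 0. The following stretches carry a match without mismatch and come from regions also called increased at 3 h. They are 8 whose match lay closest to the midpoint of the region, with 1 chromosome left out of the choice, and were chosen after their values were seen. All sequences are hg19 (GRCh37), forward strand unless stated, 5′ to 3′, with the match in capitals and 20 bases to either side in lower case. Each is named by the protein-coding gene with the nearest TSS and its position.
SPTLC1, chr9:94909708-94909767: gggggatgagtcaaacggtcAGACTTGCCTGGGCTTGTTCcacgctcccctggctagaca
CLRN3, chr10:129661609-129661668: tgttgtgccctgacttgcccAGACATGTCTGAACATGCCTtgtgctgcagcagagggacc
SPATA31D1, chr9:84636307-84636366: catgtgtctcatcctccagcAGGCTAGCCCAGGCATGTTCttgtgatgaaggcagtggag
LRRN1, chr3:3601634-3601693: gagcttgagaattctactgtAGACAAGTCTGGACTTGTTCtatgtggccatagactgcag
MAT2B, chr5:163547013-163547072: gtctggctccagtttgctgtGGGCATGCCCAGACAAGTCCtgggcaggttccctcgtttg
JADE3, chrX:46818341-46818400: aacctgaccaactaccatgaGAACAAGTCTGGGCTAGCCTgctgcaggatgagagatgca
ITGAM, chr16:31285227-31285286: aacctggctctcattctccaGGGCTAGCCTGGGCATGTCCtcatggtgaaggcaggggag
VCX, chrX:7679362-7679421: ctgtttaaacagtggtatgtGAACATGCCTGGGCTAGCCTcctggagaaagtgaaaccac

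Some of the recognition sequences whose share differed between these regions and the closed ones, described further on, are shown by 1 region each, taken among regions near genes of the lists used here. The match closest to a midpoint was taken.
p53, near MED13, chr17:60221487-60221546: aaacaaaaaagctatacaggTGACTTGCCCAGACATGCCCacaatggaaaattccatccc
E2A box, near TCF3, chr19:1691119-1691164: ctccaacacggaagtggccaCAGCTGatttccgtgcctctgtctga
E-box, near ID3, chr1:23881510-23881555: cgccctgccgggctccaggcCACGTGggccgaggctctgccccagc
GC box, near FOSB, chr19:45954122-45954169: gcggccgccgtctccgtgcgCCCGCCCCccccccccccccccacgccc
CTCF, near BAK1, chr6:33553569-33553620: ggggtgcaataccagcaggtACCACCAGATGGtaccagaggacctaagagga
PU.1, near BLNK, chr10:98019877-98019924: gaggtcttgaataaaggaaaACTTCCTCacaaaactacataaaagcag
RUNX, near BCL11A, chr2:60772234-60772280: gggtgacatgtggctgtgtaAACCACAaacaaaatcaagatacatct
OCT, near BIK, chr22:43515110-43515157: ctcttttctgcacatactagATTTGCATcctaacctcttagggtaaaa
IRF, near MED9, chr17:17349872-17349921: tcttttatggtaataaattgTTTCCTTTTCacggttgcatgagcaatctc
FOX, near RPTOR, chr17:78694820-78694866: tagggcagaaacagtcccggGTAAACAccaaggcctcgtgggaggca
MEF2, near RPTOR, chr17:78694785-78694834: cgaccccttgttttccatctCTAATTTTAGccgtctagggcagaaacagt
The FOX and MEF2 matches lie in the same region, and a match on the reverse strand appears as its reverse complement.

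The first question was where in the genome these regions lie. By their midpoints, 2805 of the 4702 regions (59.7%, 95% Wilson interval 58.2 to 61.0%) were in introns, 1504 (32.0%, 30.7 to 33.3%) between genes and 393 (8.36%, 7.60 to 9.18%) in exons. The 6884 distal regions that were decreased in VAL at 8 h and in no OCI-LY3 list, called VAL-only closed below, were in introns about as often (59.9%, a difference of -0.27 percentage points with a 95% Newcombe interval of -2.09 to 1.55), but less often in exons (2.45%) and more often between genes (37.6%). The 972 distal regions increased in both lines at 8 h were in introns in 66.8% and in exons in 6.79%, and the exon difference to the VAL-only opened regions, 1.57 points, had an interval of -0.35 to 3.21 that includes 0. All intervals in this report cover counting error over regions only, and neighbouring regions are not independent, so for the differences that the text turns on the number of the 22 autosomes with the same direction is given. For exons against the closed regions it was 21 of 22.

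The opened regions were closer to TSS than the closed ones. The median distance was 10962 bp (quartiles 5100 and 23880 bp) against 21172 bp in the closed regions and 8198 bp in those increased in both lines. Over 10 kb from any TSS lay 53.4% of the opened and 72.2% of the closed regions, a difference of -18.9 points (-20.6 to -17.1, the same direction on 21 of 22 autosomes). The region farthest from a TSS, 471 bp wide on chromosome 8, was 615336 bp away. At the limit set by the rule, the nearest members were 1001, 1002 and 1003 bp from a TSS, the first at SFN, the last at SERPINF1, and the other 9085 bp from its nearest protein-coding TSS, of RNF135. Of the VAL-only increased regions just left out, the one at POU5F1 was 991 bp from a TSS. The median width was 988 bp (quartiles 643 and 1332 bp), narrower than the closed regions (1314 bp) and those increased in both lines (1241 bp). The widest member spanned 2963 bp, chr2:131608169-131611131, in an intron near ARHGEF4. Of the next 4, one between genes near SPR (2939 bp) was also increased at 3 h, whereas those near KCNJ5 (2939 bp), FRMPD3 (2925 bp) and GRB7 (2917 bp) were not.

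The regions were spread unevenly over chromosomes. There were 1.52 per Mb over all chromosomes and 7.10 per Mb on chromosome 19, 5.77 on chromosome 22, 4.85 on chromosome 17 and 3.45 on chromosome 16. These 4 chromosomes hold 9.11% of the genome length and 1422 of the 4702 regions (30.2%, 28.9 to 31.6%), against 40 of the 6884 closed regions (0.58%). On chromosome 19 the VAL-only distal calls were 420 opened and 4 closed, and on chromosome 22 they were 296 opened and 1 closed. On chromosome 4 they were 117 opened and 749 closed. Regions increased in both lines were placed on the 4 chromosomes still more often (37.7%), and the 1502 distal regions increased only in OCI-LY3 less often (11.5%, a difference of 18.7 points, 16.6 to 20.7). Within 5 Mb of a chromosome end lay 21.7% of the opened and 3.17% of the closed regions, a difference of 18.6 points (17.3 to 19.8, on 20 of 22 autosomes).

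**Figure D1:**
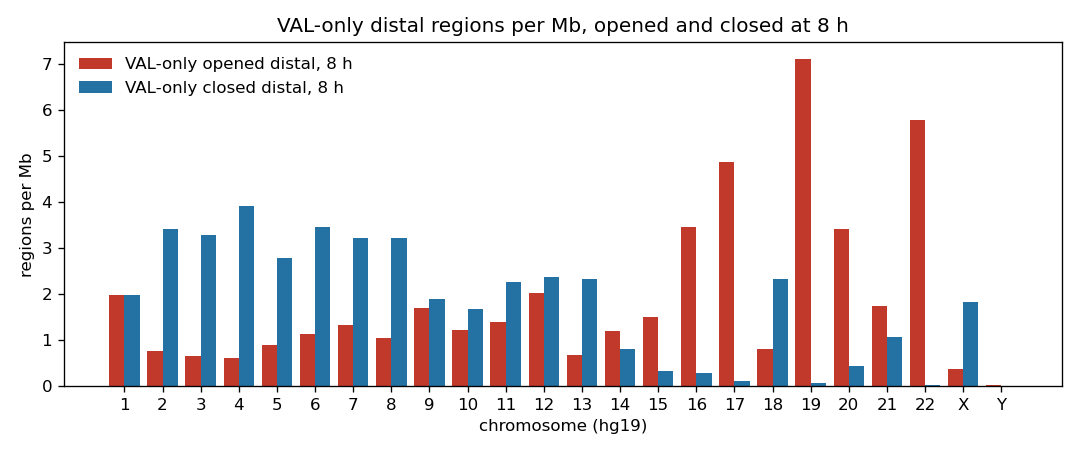
Number of VAL-only distal regions per Mb (vertical axis) on each hg19 chromosome (horizontal axis), with red bars for regions opened and blue bars for regions closed at 8 h. Red bars reach 7.10 per Mb on chromosome 19 and 5.77 on chromosome 22, where only 4 and 1 regions were closed.

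Base composition moved with direction in the same way. The median GC content of the opened regions was 52.8% (quartiles 45.7 and 59.7%), of the closed regions 40.1%, of the regions increased in both lines 52.8% and of the OCI-LY3-only opened regions 46.6%. The median was higher in the opened than in the closed regions on 22 of 22 autosomes. GC content of at least 55% was found in 42.5% of the opened and 1.77% of the closed regions, and GC content under 40% in 8.29% and 49.3%. The central 200 bp had a higher GC content than the windows 5 kb to either side in 3317 of 4702 opened regions (70.5%). The composition of a CpG island (GC over 50% and an observed to expected CpG ratio over 0.6) was found in 324 opened regions (6.89%, 6.20 to 7.65%), in 0.81% of the closed, 2.06% of those increased in both lines and 0.20% of the OCI-LY3-only opened regions. All 3 differences to the opened regions had intervals above 0 and the same direction on 22 of 22 autosomes. GC content of the fragments also affects amplification and sequencing, and its part in the calls was not tested. Shares of 8 motifs are therefore also given by GC class of the region below.

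**Figure D2:**
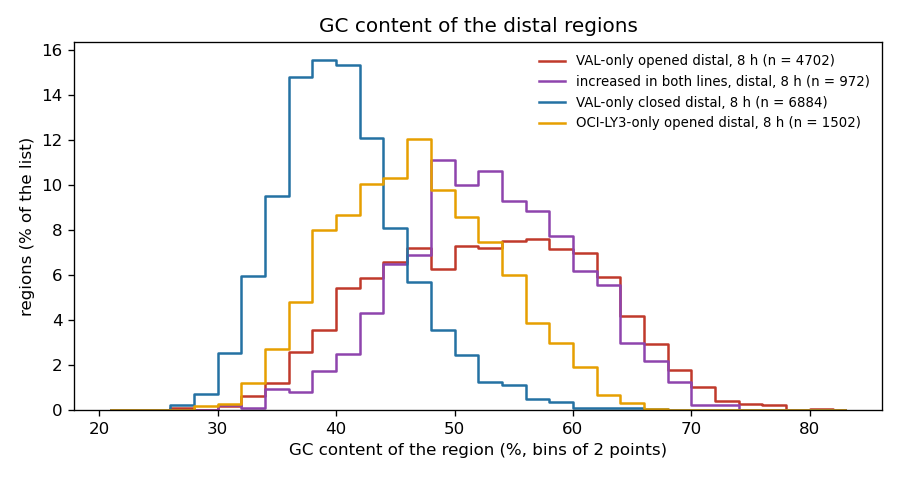
Share of each list of distal regions (vertical axis, %) by GC content of the region (horizontal axis, bins of 2 percentage points), 1 line per list. The VAL-only opened regions, with a median of 52.8%, lie to the right of the closed ones, with a median of 40.1%.

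Of the 4702 regions, 974 (20.7%) were also listed as increased at 3 h, 0 were listed as decreased at 3 h, and 3728 were in no 3 h list. Among all distal listed regions the VAL 3 h lists held 8.45% as increased and 8.59% as decreased. The 3 h and 8 h calls share their 0 h libraries, so these counts are set side by side and nothing is read from their overlap. Regions already listed at 3 h were wider (median 1210 bp, against 910 bp) and had a lower GC content (median 50.4%, against 53.3%).

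The next question was which recognition sequences the opened regions hold. Consensus sequences of 20 factors or families were searched on both strands in the central 200 bp. The letters were TGACTCA (AP-1), TGACGTCA (CRE), CCGGAAGT (ETS), GAGGAAGT (PU.1), TGTGGTT (RUNX), ATGCAAAT (OCT), CACGTG (E-box of MYC and USF), CAGCTG (E2A box), GGGGCGGG (GC box of SP and KLF factors), GCATGCGC (NRF1), AAGATGGC (YY1), TTCCNGGAA (STAT) and TGTTTAC (FOX). The degenerate NF-kB, IRF, EBF and MEF2 consensus sequences of 10 bases and the heat shock element of 13 were searched without mismatch, the CTCF core of 12 bases with up to 1 mismatch and the p53 consensus of 20 bases with up to 2. At least 1 of them was found in 2316 regions (49.3%). Against the closed regions the share was higher for 8 motifs, lower for 7 and had an interval that includes 0 for 5. Matches of different motifs can overlap, as NF-kB and EBF do at G-rich stretches.

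A p53 match was found in 192 of the 4702 opened regions (4.08%, 3.55 to 4.69%) and in 28 of the 6884 closed regions (0.41%), a difference of 3.68 points (3.12 to 4.29) with the same direction on 21 of 22 autosomes. In the windows 5 kb to either side of the opened regions the share was 0.62%. In the OCI-LY3-only opened regions it was 10 of 1502 (0.67%), which differed from the VAL-only opened regions by 3.42 points (2.65 to 4.09, on 21 of 22 autosomes). In the regions increased in both lines it was 30 of 972 (3.09%), and here the difference of 1.00 point had an interval of -0.39 to 2.09 that includes 0 (on 12 of 22 autosomes). This difference depended on the search: it was 4.15 points (2.03 to 6.02) over the whole region and 2.20 points (0.44 to 3.69) in the central 400 bp. With no mismatch allowed, 35 opened regions had a match, against 1 closed, 2 increased in both lines and 0 OCI-LY3-only opened. With 1 mismatch the counts were 109, 3, 11 and 0, and the difference to the regions increased in both lines was 1.19 points (0.22 to 1.87, on 15 of 22 autosomes). With 0 mismatches that difference was 0.54 points (-0.04 to 0.86) and with 3 it was 1.29 points (-0.69 to 3.01), both with intervals that include 0.

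**Figure D3:**
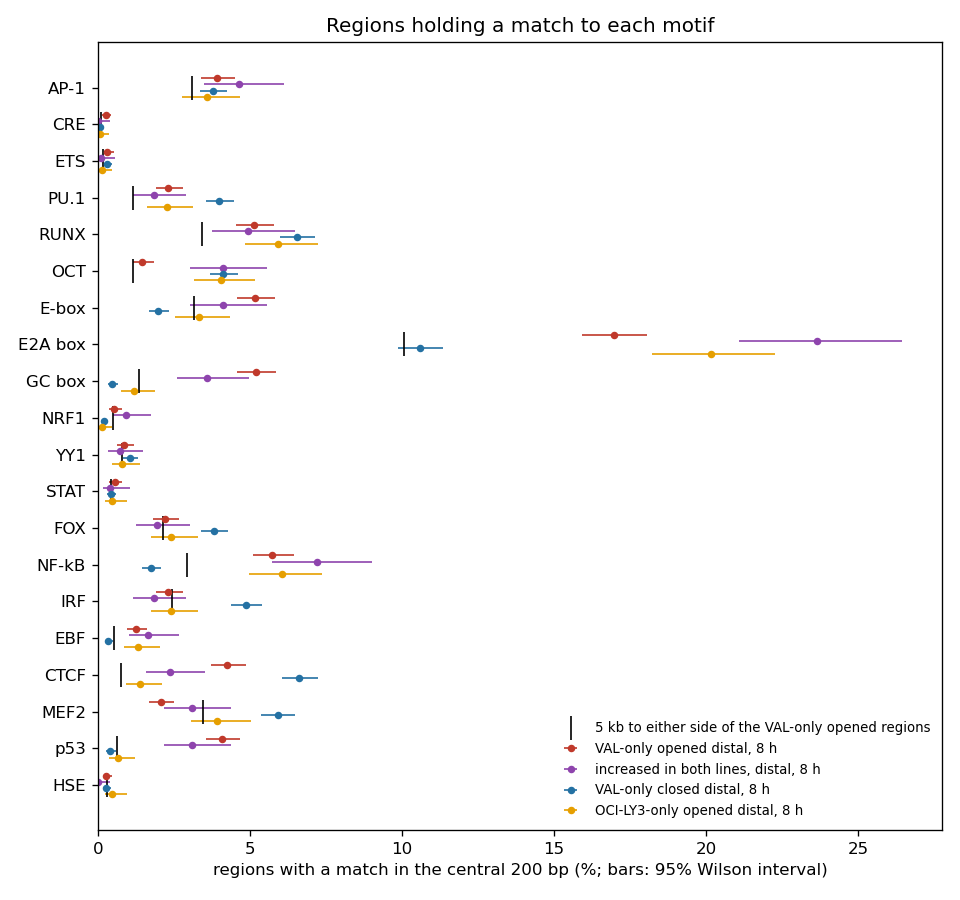
Share of regions with a match in the central 200 bp (horizontal axis, %) for each of 20 motifs (vertical axis), with dots for the 4 lists of distal regions, bars for 95% Wilson intervals and black ticks for windows 5 kb from the VAL-only opened regions. For p53 the red dot (4.08%) and the purple dot of regions increased in both lines (3.09%) lie to the right of the blue (0.41%) and orange (0.67%) dots.

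The p53 matches were most frequent where GC content was lowest. In opened regions under 40% GC, 49 of 390 had a match (12.6%, 9.64 to 16.2%), followed by 8.73% at 40 to 45%, 6.01% at 45 to 50%, 2.95% at 50 to 55% and 0.55% at 55% and over. The closed regions stayed between 0.34% and 0.82% in every class, and the OCI-LY3-only opened regions between 0.35% and 1.55%. The regions increased in both lines had the same order of classes, from 13.5% (5 of 37) and 9.38% to 3.37%, 2.46% and 0.78%, and in every class their interval overlapped that of the VAL-only opened regions. In the 3 classes under 50% GC the intervals of the VAL-only opened regions lay above those of the closed and the OCI-LY3-only opened regions. In the class of 55% GC and over, which held 1996 of the opened regions, the 4 lists did not differ beyond their intervals. Members with a match had a median GC content of 43.97%, against 53.3% in the others, and 17 of 192 were on chromosomes 16, 17, 19 and 22 (8.85%, against 31.2% of the others).

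Regions with a p53 match were more often early. A match was found in 119 of the 974 opened regions also listed at 3 h (12.2%, 10.3 to 14.4%) and in 73 of the 3728 not listed at 3 h (1.958%, 1.56 to 2.45%), a difference of 10.3 points (8.29 to 12.5) with the same direction on 20 of 22 autosomes. The 3 h call shares its 0 h libraries with the 8 h call, while the sequence was used by neither. Of the 35 regions with a match without mismatch, 30 were listed at 3 h. Under 40% GC the share was 28.3% in regions listed at 3 h (32 of 113) and 6.14% in those not listed (17 of 277), and at 45 to 50% GC it was 16.9% and 3.08%. At 55% GC and over it was 0.87% (3 of 345, 0.30 to 2.53%) and 0.48% (8 of 1651, 0.25 to 0.95%), whose intervals overlap. For the other motifs the interval of the difference included 0, apart from NF-kB (3.18% at 3 h and 6.41% later, a difference of -3.23 points, -4.48 to -1.73, on 18 of 22 autosomes), CTCF (2.05% and 4.83%, -2.77 points, -3.80 to -1.50, on 17) and FOX (3.29% and 1.93%, 1.35 points, 0.28 to 2.73, on 13). The part of the GC difference between early and later regions in these 3 was not tested.

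**Figure D4:**
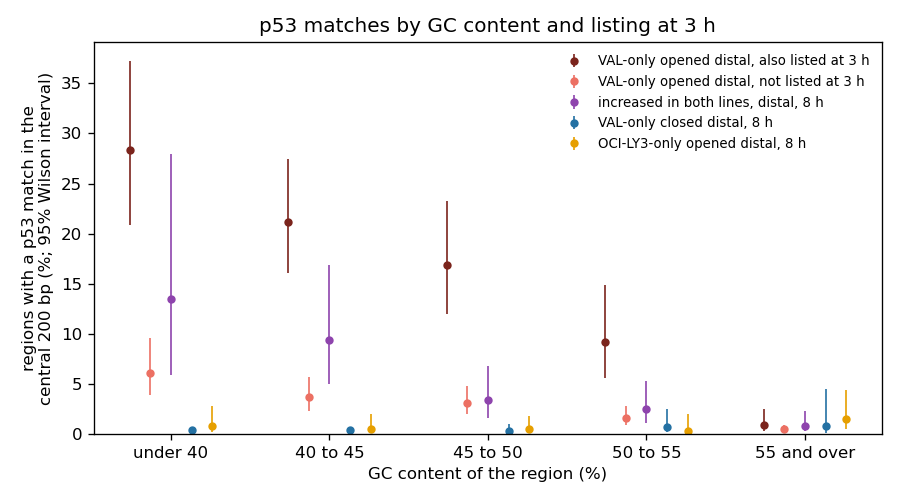
Share of regions with a p53 match in the central 200 bp (vertical axis, %) by GC class of the region (horizontal axis), with dots for 5 sets of distal regions and bars for 95% Wilson intervals. Under 40% GC the share was 28.3% in VAL-only opened regions also listed at 3 h, 6.14% in those not listed at 3 h and 0.41% in the closed regions.

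The matches lay near the middle of the regions. In bins of 50 bp, 1.04 to 1.25% of the opened regions had a p53 match in each of the 4 bins within 100 bp of the midpoint, and 0.19 to 0.21% had one in the outermost bins, almost 1000 bp away. In the regions increased in both lines the 4 central bins held 0.72 to 1.03%, and in the closed regions 0.06 to 0.17%. Regions with a match were also placed differently from the other opened regions. They were more often over 100 kb from a protein-coding TSS (71 of 192, 37.0%, against 16.8%, a difference of 20.2 points, 13.6 to 27.3, on 15 of 21 autosomes) and more often between genes (39.6% against 31.7%, 7.92 points, 1.13 to 15.1, on 12 of 21). The promoter of the nearest protein-coding gene was increased in VAL at 8 h for 25 of 192 (13.02%) and for 41.8% of the other opened regions, given with no test since the promoter calls are those of the VAL 8 h list. Regions with a match also had a lower GC content, and its part in these differences was not tested.

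**Figure D5:**
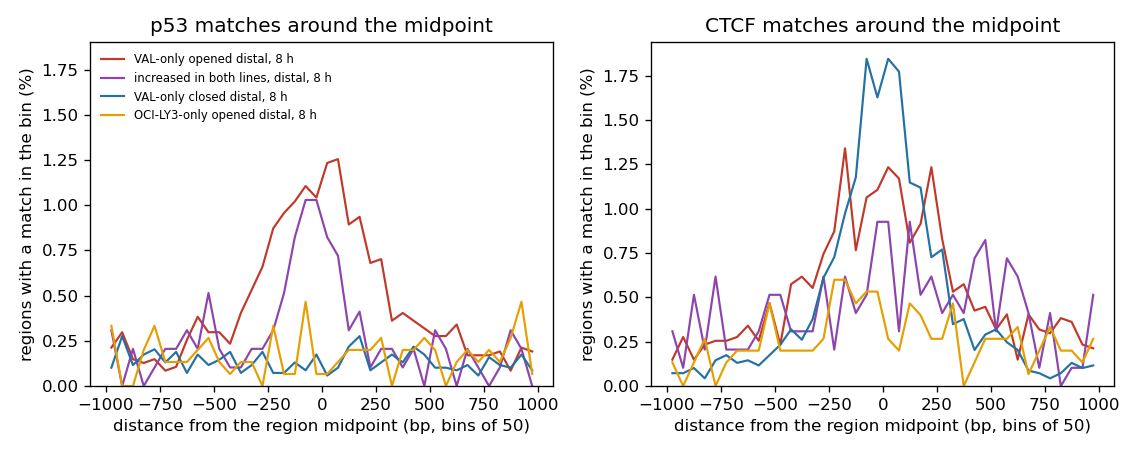
Share of regions with a p53 (left) or CTCF (right) match in each 50 bp bin (vertical axis, %) against distance from the midpoint of the region (horizontal axis, bp), 1 line per list. The red line of the VAL-only opened regions reaches 1.25% for p53 between 50 and 100 bp from the midpoint, where the blue line of the closed regions is at 0.10%.

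Some p53 matches in the opened regions were set in similar sequence at distant positions. The 20 bases to either side of the match (40 in all, ungapped, either strand) were compared between regions, and 63 of the 192 regions (32.8%, 26.6 to 39.7%) had another among them with at least 30 equal bases. For other motifs in the same opened regions the share was 8 of 270 for NF-kB (2.96%), 4 of 200 for CTCF (2.00%), 15 of 243 for the E-box (6.17%) and 0 of 244 for the GC box. Among p53 matches it was 8 of 30 in the regions increased in both lines, and 0 of 28 in the closed and 0 of 10 in the OCI-LY3-only opened regions, which give fewer pairs to compare. The 63 regions fell into 12 groups, and 42 of them were listed at 3 h. The largest group had 12 regions, 8 of them listed at 3 h, and 5 are shown, turned to the strand of the first. The first 4 were listed at 3 h.
chr7:148369308-148369367, forward strand: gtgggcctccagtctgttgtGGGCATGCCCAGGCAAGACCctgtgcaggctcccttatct
chr9:38583925-38583984, reverse strand: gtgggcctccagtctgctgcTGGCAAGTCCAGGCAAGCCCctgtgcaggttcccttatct
chr9:95750597-95750656, forward strand: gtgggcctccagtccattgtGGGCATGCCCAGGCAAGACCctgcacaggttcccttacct
chr12:22984095-22984154, forward strand: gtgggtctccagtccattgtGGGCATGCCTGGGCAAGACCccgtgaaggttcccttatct
chr1:85051635-85051694, forward strand: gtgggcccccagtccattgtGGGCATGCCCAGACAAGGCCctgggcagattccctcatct
The second group had 10 regions, 9 of them listed at 3 h, and in the 5 shown 36 to 38 of the 40 flanking bases equal those of the first.
chr4:129607369-129607428, forward strand: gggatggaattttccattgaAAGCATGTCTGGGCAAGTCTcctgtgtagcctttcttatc
chr7:86960420-86960479, forward strand: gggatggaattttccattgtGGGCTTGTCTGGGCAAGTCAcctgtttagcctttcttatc
chr2:123277589-123277648, reverse strand: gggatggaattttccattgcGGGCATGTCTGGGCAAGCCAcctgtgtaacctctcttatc
chr3:146300066-146300125, reverse strand: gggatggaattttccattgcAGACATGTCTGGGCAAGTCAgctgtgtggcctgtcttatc
chr16:28005097-28005156, reverse strand: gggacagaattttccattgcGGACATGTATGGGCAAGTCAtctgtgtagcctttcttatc
No repeat annotation was used here, so the groups carry no family name, and the authors' mapping had kept uniquely placed reads only. With the matches that had such a partner not counted and all regions kept, 129 opened regions (2.74%) and 28 closed regions (0.41%) held a match, a difference of 2.34 points (1.87 to 2.86), and against the OCI-LY3-only opened regions it was 2.08 points (1.38 to 2.67). Against the regions increased in both lines it was 0.48 points, with an interval of -0.74 to 1.40 that includes 0.

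Among the factors of B cells, the opened regions held more NF-kB matches than the closed ones (270 regions, 5.74%, against 1.74%, a difference of 3.999 points, 3.28 to 4.76, on 22 of 22 autosomes) and more EBF matches (1.25% against 0.33%, 0.92 points, 0.59 to 1.298, on 18 of 22). NF-kB is the factor family activated by B-cell receptor and Toll-like receptor signalling, and EBF1 specifies the B lineage. By GC class, the NF-kB intervals of opened and closed regions were apart at 40 to 45% (4.22% against 1.60%) and at 55% and over (7.62% against 0.82%) and overlapped in the other 3 classes, with 3.07% and 2.91% at 45 to 50%. The EBF intervals overlapped in every class. Regions increased in both lines (7.20%) and OCI-LY3-only opened regions (6.06%) had shares whose differences to the VAL-only opened regions had intervals that include 0 (-3.37 to 0.16 and -1.78 to 0.99 points). The E2A box was in 798 opened regions (16.97%) and 10.6% of the closed, but in 23.7% of the regions increased in both lines (a difference of -6.69 points, -9.65 to -3.90, on 18 of 22 autosomes). In each GC class the E2A box intervals of opened and closed regions overlapped, for example 14.7% and 16.4% at 45 to 50%.

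OCT matches, bound by OCT1 and the B-cell factor OCT2, were fewer in the VAL-only opened regions than in every compared list. They were found in 69 regions (1.47%, 1.16 to 1.85%), against 4.13% of the closed, 4.12% of those increased in both lines and 4.06% of the OCI-LY3-only opened regions. The differences were -2.66 points (-3.24 to -2.07, on 18 of 22 autosomes), -2.65 points (-4.12 to -1.50, on 17) and -2.59 points (-3.76 to -1.63, on 17), and in the windows 5 kb away the share was 1.16%. Split by GC class, the OCT intervals of opened and closed regions overlapped in all 5 classes, with 2.82% and 4.95% under 40% GC and 2.05% and 3.69% at 45 to 50%. Against the regions increased in both lines the OCT intervals were apart in the 3 classes from 40 to 55% GC, for example 1.26 to 3.30% and 5.17 to 12.7% at 45 to 50%, and overlapped in the other 2. Against the OCI-LY3-only opened regions they were apart at 40 to 45% GC (1.55 to 3.93% and 4.24 to 9.28%) and overlapped in the other 4. MEF2 matches were also fewer than in all 3 lists, with 2.06% against 5.91%, 3.09% and 3.93%, the difference to the regions increased in both lines being close to 0 (-1.02 points, -2.36 to -0.004). PU.1 (2.32% against 3.99%), IRF (2.32% against 4.87%), RUNX (5.13% against 6.54%) and FOX (2.21% against 3.81%) were lower than in the closed regions only, and for these 4 the intervals of the differences to the other 2 lists included 0. MEF2, PU.1, IRF, RUNX, FOX and AP-1 were not split by GC class. AP-1 matches were in 3.91% of the opened and 3.78% of the closed regions (a difference of 0.14 points, -0.57 to 0.87).

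Over all regions CTCF matches were in 200 opened (4.25%) and 456 closed regions (6.62%), a difference of -2.37 points (-3.19 to -1.54, on 15 of 22 autosomes), and in 2.37% of the regions increased in both lines and 1.40% of the OCI-LY3-only opened ones. Under 40% GC CTCF matches were in 2 of 390 opened and 251 of 3394 closed regions (0.51% and 7.40%). At 55% GC and over they were in 132 of 1996 opened and 3 of 122 closed regions (6.61%, 5.60 to 7.79%, and 2.46%, 0.84 to 6.98%), whose intervals overlap. In the classes of 40 to 45% and 45 to 50% GC the opened regions also held fewer (0.73% against 5.54% and 2.94% against 6.48%). Of the 200 opened regions with a CTCF match, 180 were not listed at 3 h, beside 3728 of all 4702. GC box matches rested on the most GC-rich class, with 222 of 244 in regions of 55% GC and over, where they were in 11.1% of the opened (9.82 to 12.6%) and 5.74% of the closed regions (2.81 to 11.4%), whose intervals overlap. E-box matches were in 5.17% of the opened and 1.99% of the closed regions, a difference of 3.18 points (2.48 to 3.91, on 22 of 22 autosomes), and their intervals were apart in the classes of 40 to 45% (3.49% and 1.69%) and 50 to 55% GC (5.31% and 1.03%) and overlapped in the others.

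The surroundings in OCI-LY3 come from other libraries than the VAL calls, but the rule used the OCI-LY3 lists to leave out equal regions, so the shares are given with no test. An OCI-LY3 region increased at 8 h lay within 10 kb of 552 of the VAL-only opened regions (11.7%, 10.9 to 12.7%) and of 1.903% of the VAL-only closed regions. Over all distal listed regions the share was 7.48%. In the regions increased in both lines it was 34.2% and in the OCI-LY3-only opened regions 17.3%, and these lists were themselves drawn from the OCI-LY3 8 h increased list. An OCI-LY3 region decreased at 8 h lay within 10 kb of 71 of the VAL-only opened regions (1.51%) and of 5.55% of the closed ones. At 3 h in OCI-LY3 the shares for increased regions were 4.62% and 1.12%. In VAL itself another region increased at 8 h lay within 10 kb of 1596 (33.9%), and a region decreased at 8 h within 10 kb of 82 (1.74%), from the calls that chose the regions and with no test. Base composition and gene density differ between the lists, and their part in these neighbours was not tested.

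Most opened regions stood alone. Joined where less than 10 kb apart, the 4702 regions formed 4210 loci, of which 3805 held 1 region and 64 held 3 or more. The locus with most, 6 regions, was chr22:46957017-46989497 at CELSR1, a cadherin of planar cell polarity, and GRAMD4. The loci with 5 were chr22:35741556-35759650 near HMOX1, the stress-induced haem oxygenase, chr20:60895692-60915044 at ADRM1 and LAMA5, chr19:6516078-6538905 near TNFSF9, the 4-1BB ligand, and chr22:46810088-46833680 at CELSR1 and TRMU. Between 1 and 3 regions of each were listed at 3 h.

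The regions were nearest to 3371 protein-coding genes, of which 2519 had 1 region and 55 had 5 or more. GSE1 on chromosome 16 (85203131 to 85709810, forward strand) had most, with 15 regions nearest to a TSS of it and 25 in its body, and the neighbouring CIBAR2 had 12. PREX1, an exchange factor for the GTPase Rac, had 8 with 4 in its body, and UQCRFS1, a subunit of respiratory complex III, had 8. TMEM121 had 8, spread over chr14:106025212-107147696 along the immunoglobulin heavy chain locus, and IGLL5 had 7, over chr22:23130907-23298228 in the lambda light chain locus. Both loci are rearranged in B cells. MAD1L1, of the spindle checkpoint, PCBP3, GRAMD4, TAFA5 and TRMU had 7 each, and CELSR1 had 6 with 9 in its body. VAL-only closed regions nearest to these 12 genes numbered 0, except 2 at UQCRFS1.

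Signalling genes of B cells were touched by few regions each, with the exception of some long genes. Counts are of regions in the body of a gene or nearest to its TSS, beside how many of all distal listed regions nearest to the same genes were VAL-only opened, which over all genes is 4702 of 18683. Of 29 B-cell receptor genes, 11 had a region, 22 regions in all. Of 65 listed regions nearest to them, 19 (29.2%) were VAL-only opened and 28 VAL-only closed. VAV2, an exchange factor downstream of the receptor, had 8, all in introns and 4 of them listed at 3 h, and PRKCB, PTPN6 and SYK had 2 each. Of 26 genes of the PI3K, AKT and mTOR pathway, 8 had a region. Of 43 listed regions nearest to them, 16 (37.2%) were VAL-only opened and 16 VAL-only closed. RPTOR, the scaffold of mTORC1, had 9 regions, all in introns, and PIK3CD, the leukocyte PI3K catalytic subunit, had 5, of which 4 lay in its body (3 in introns and 1 in an exon) and 0 were listed at 3 h. PIK3R6 and TSC2 had 2 each. PIM3 had 2 and PIM1 had 1, and 0 of these 3 were listed at 3 h. At PIM3 they lay at chr22:50337311-50338715 and chr22:50363932-50364679, to either side of the gene.

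Transcription factors of the germinal centre and plasma cell had a smaller share: 15 of 28 had a region, and 25 of 175 listed regions nearest to them (14.3%) were VAL-only opened, beside 58 VAL-only closed. ID3, an inhibitor of E2A, IRF8 and POU2F2, which encodes OCT2, had 3 each. For NF-kB genes it was 9 of 55 (16.4%), beside 21 VAL-only closed. MAP3K14 had 2, and CHUK, MAP3K7 and NFKB2 had 1 each. In the BCL2 family 7 of 38 (18.4%) were VAL-only opened, beside 19 VAL-only closed, and over all genes it was 4702 of 18683. The 8 opened regions in or nearest to its genes lay at the pro-apoptotic BAK1, BBC3, BCL2L11 and BIK, 2 at each. Of these 8, 6 were listed at 3 h, both at BBC3 and both at BIK among them, beside 974 of 4702 (20.7%) over all VAL-only opened regions. Migration and confinement receptors had 9 of 41 (22.0%), beside 15 VAL-only closed. Of the 9, 5 were at CCR7, the receptor that draws B cells to lymph nodes, and 1 each at ITGAL, ITGB2 and S1PR1.

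Immediate early genes had the largest share among the lists with more than 10 listed regions, 19 of 34 (55.9%), beside 4702 of 18683 over all genes. VAL-only closed regions nearest to them numbered 3. Of the 19, 6 were nearest to IER2 on chromosome 19, where 420 VAL-only distal regions were opened and 4 closed. Of these 6, 0 lay in the body of IER2, and the farthest was 125029 bp from its TSS. ATF3, EGR3 and FOSL2 had 2 each, and 3 of the 19 were listed at 3 h. Mediator genes, whose complex links enhancers to RNA polymerase II, had 16 of 35 (45.7%), and 19 were in or nearest to them. MED4 had 4 regions, all listed at 3 h, MED16 had 3, and MED10 and MED13 had 2 each. P-TEFb, pausing and elongation genes had 7 of 22 (31.8%). In or nearest to them were 13, among them 2 in ELL and 1 each in AFF1 and CDK13. Chromatin modifiers mutated in DLBCL had 17 of 49 (34.7%). In or nearest to them were 20, among them 3 each in introns of CREBBP and KDM2B and 2 at ARID1A. JAK, STAT and SOCS genes had 6 of 20 (30.0%). In or nearest to them were 7, among them 2 at PTPN1 and 1 each at PIAS1, SOCS3 and STAT5A. Genes of other blood cells were also among those nearest to a region: T-cell genes had 6 of 13 (46.2%), with CD7, CD2, GATA3 and LCK, and myeloid genes 6 of 8, with CSF1R, ITGAM, CSF3R and MPO. These markers describe nearest genes and not expression, and no other value of the lists bears on the identity of the cells.

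Of the regions in or nearest to genes of these lists, those with a p53 match were at S1PR1, IER5, FOXP1, GATA3, MED4 (2 regions), ITGAM and MED13. The stretches not yet shown, with up to 2 mismatches, follow.
MED4, chr13:48640860-48640919, intron: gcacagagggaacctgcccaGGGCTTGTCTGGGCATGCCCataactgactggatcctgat
MED4, chr13:48646577-48646636, intron: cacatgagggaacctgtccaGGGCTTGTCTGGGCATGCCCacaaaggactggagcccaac
S1PR1, chr1:101992525-101992584: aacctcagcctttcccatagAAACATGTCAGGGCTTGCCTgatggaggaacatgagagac
IER5, chr1:181068874-181068933: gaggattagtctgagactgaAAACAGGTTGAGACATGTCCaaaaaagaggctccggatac
FOXP1, chr3:70903593-70903652: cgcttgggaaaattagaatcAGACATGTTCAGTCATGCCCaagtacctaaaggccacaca
GATA3, chr10:9452586-9452645: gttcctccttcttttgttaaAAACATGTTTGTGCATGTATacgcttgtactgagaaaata
Both MED4 matches have 0 mismatches and the same 20 bases, and both regions were listed at 3 h, as were those at S1PR1, IER5 and FOXP1. The MED4 match at chr13:48646577-48646636 was in a group of 5 with similar flanks, which also held the MAT2B match shown near the start. The MED13 match was in the group of 10. The GATA3 region lay 1355300 bp from the nearest protein-coding TSS, the S1PR1 region 288137 bp, the FOXP1 region 209702 bp and the MED13 region 78570 bp. For the MED4 regions it was 27474 and 22299 bp, for ITGAM 13312 bp and for IER5 10449 bp. The gene names are only labels of place.

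A list of 30 genes known as p53 targets was set beside these counts after the p53 matches had been seen. It had 7 VAL-only opened distal regions, at MDM2 and BBC3 (2 each), CDKN1A, GDF15 and PLK2, among 50 listed distal regions nearest to its genes (14%, beside 4702 of 18683 over all genes), of which 16 were VAL-only closed. MDM2 encodes the ligase that degrades p53, BBC3 the pro-apoptotic PUMA and CDKN1A the cell cycle inhibitor p21. Of the 7 regions, 4 were listed at 3 h and 0 had a p53 match in the central 200 bp. The region nearest to CDKN1A was chr6:36632128-36633037, between genes, 11200 bp from its TSS.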

How the data were processed

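ATAC-seq was made in 24 libraries of 6 groups (2 lines at 3 times, 4 libraries each). For the deposited lists the authors mapped reads with Bowtie2 (genome build hg19), dropped those that were mitochondrial, duplicated or not uniquely placed, called peaks in each sample with MACS2, joined peaks and counted reads with bedtools, and tested the counts with DESeq2. Tool versions for these ATAC-seq steps are not given in the sources used here. The deposited files are 8 lists of coordinates, increased or decreased at 3 h or 8 h in each line, without score, fold or count. Their unit was recorded as other, the deposited columns being chromosome, start and end, and 0 columns hold per-sample values, so depth is unknown.

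Starts were counted from 1. Distances to the TSS of GENCODE 44 transcripts lifted to GRCh37 were taken from the nearer edge of the region. Places in introns, in exons or between genes were assigned by the midpoint. Sequence was read from GRCh37 with pysam 0.24.0 in Python 3.11.15. Motifs were searched in the central 200 bp. Shares carry 95% Wilson intervals and differences 95% Newcombe intervals. The search was tested on simulated sequence, where 100 of 100 planted p53 windows were found, and 94.5% of 2000 simulated intervals held the true difference. That sequence held only A and T outside the planted sites, so it could not show false matches. The intervals were simulated from independent counts, so dependence between neighbouring regions was not covered. Compared lists and gene lists were described by counts.

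The regions and gene lists were chosen with earlier results of these data known. The p53 target list, the mismatch counts, the comparison with OCI-LY3-only regions and the flank comparison were added after seeing the data. Named genes were the 12 with most regions, the 4 with most regions in each list, the widest, farthest and boundary regions and the 5 largest loci, and some of these are not reported here. Printed stretches hold the match with 20 bases to either side, not the whole 200 bp planned. Alternatives were other TSS distances, other transcript sets, stricter exclusion, merging, chromosomes left out and other motif windows.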

Additional observations from a re-analysis of the deposited data

How the results depend on the processing

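The number of regions ranged from 3280 to 5344 under the alternatives to the rule, against 4702. With TSS of all transcripts the share in introns was 57.1%, between genes 36.0%, in exons 6.93%, on chromosomes 16, 17, 19 and 22 28.5%, near an OCI-LY3 region increased at 8 h 10.6%, and the median GC content 51.785%. At 5000 bp from a TSS the share in exons was 6.51%, on the 4 chromosomes 27.2%, near an OCI-LY3 increased region 10.06%, and the median GC content 51.76%. Without the 4 chromosomes the share between genes was 34.2%, in exons 6.98%, near an OCI-LY3 increased region 8.54%, and the median GC content 50.8%. With regions within 10 kb merged, the share on the 4 chromosomes was 28.2% and the median GC content 52.3%. With a limit of 50 kb, 35.5% lay near an OCI-LY3 increased and 7.38% near a decreased region, as a wider limit must give more. The p53 difference to the regions increased in both lines was 4.15 points over the whole region, 2.20 points in 400 bp and, chosen after seeing the data, 1.19 points with 1 mismatch, each with an interval above 0, but with 0 mismatches it was 0.54 and with 3 it was 1.29 points, both with an interval that includes 0. The cause was not tested. Of 255 alternatives for motif differences 225 kept their direction and their side of 0, 8 had an interval that came to include 0, 22 had one that no longer did, and 0 reversed.

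No paired analysis was possible because the files hold called regions and no value per library. For the same reason leaving out a replicate, another normalization or another call threshold could not be tried, and the depth behind a call is unknown. For a region missing from a list, not tested, under the authors' limits and unchanged cannot be told apart. Intervals cover counting error over regions, and regions with similar flanks or in 1 locus are not independent.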
